A study of Mus musculus with 6 samples.

Results

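The genes described here are the ligands, receptors, TRAF adaptors, NF-κB subunits and NF-κB inhibitors of the tumor necrosis factor (TNF) pathway in epididymal white adipose tissue (eWAT). They were chosen by a rule on gene symbols. All protein-coding genes whose symbol begins with *Tnfsf* or *Tnfrsf* were taken, with *Traf1* to *Traf7* and 15 genes named singly (*Tnf*, *Lta*, *Ltb*, *Ltbr*, *Tnfaip3*, *Nfkb1*, *Nfkb2*, *Rel*, *Rela*, *Relb*, *Nfkbia*, *Nfkbib*, *Nfkbie*, *Nfkbiz* and *Bcl3*). This gave 54 of the 54532 genes in the deposited tables: 15 ligands, 21 receptors, 7 TRAFs, 5 NF-κB subunits and 6 inhibitors. Those counted as inhibitors are *Tnfaip3* and the IκB genes, among them *Nfkbiz* and *Bcl3*, which encode nuclear IκB proteins. Relatives that carry other symbols, such as *Cd40*, *Fas* and *Cd27*, were outside the choice and are given separately.

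RNA-seq was performed on the eWAT of 3 cachectic and 3 control mice. All were C57BL/6 males of 6 to 10 weeks. Cachexia was induced by subcutaneous inoculation of LLC, the Lewis lung carcinoma line of the same mouse strain, and tissue was taken on day 21. The labels number the mice of each group as separate samples and give no litter, cage or library batch, so the p-values measure the spread between these 6 samples. The model holds a single tumor line in males, and what the control mice received in place of the tumor cells is not given in the sources used here.

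The tumor necrosis factor ligands are mostly trimeric proteins of the cell surface, some of which are also released. They bind receptors whose cytoplasmic tails recruit TRAF adaptors. The adaptors lead to kinases that free NF-κB dimers from IκB proteins, upon which the dimers enter the nucleus and act on genes of inflammation and survival. Several of the inhibitors are themselves made in response to NF-κB, so the pathway carries its own brake. A second branch runs through lymphotoxin beta receptor, TRAF3 and the processing of the *Nfkb2* product. In fat, TNF is known for acting on adipocytes to raise lipolysis and to lower their response to insulin.

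The tested members moved in no common direction. In cachectic eWAT, 3 members rose, namely *Nfkbia*, *Nfkbiz* and *Tnfrsf9*, and 3 fell, namely *Traf3*, *Ltbr* and *Tnfrsf13b*. Of the 6 genes counted as inhibitors, 2 were called (33.3%, against 17.6% of all genes tested), a group too small to set apart. They were *Nfkbia* and *Nfkbiz*, and *Nfkbiz* encodes a nuclear co-regulator of NF-κB targets. None of the 9 tested ligands and 5 NF-κB subunits was called, groups too small to set apart from the 17.6% called among all genes tested. *Tnf* itself was low in both groups.

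A gene was called when its adjusted p-value was under 0.05 in edgeR's quasi-likelihood test, fitted on the raw counts of all genes with Benjamini-Hochberg adjustment over 16003 genes. Of the 54 members, 47 had enough counts to be tested. The 6 called members were 12.8% of those 47, whereas 17.6% of all genes tested were called. In the 2 directions, 3 of 47 members rose against a background of 9.0% of genes, and 3 of 47 fell against a background of 8.63%. The values of the 3 control and the 3 cachectic mice did not overlap for 15 members (31.9%), and did not overlap for 40.5% of all genes tested. The log2 fold changes of the members, cachexia over control, ran from −2.38 to 2.33 with a median of 0.15, and that of all genes tested was −0.0031. Positive values were seen for 27 members and negative values for 20. The share called among the members was thus not above that of all genes, and the results below concern single genes. Leaving out 1 mouse at a time, 1 member fell without the third control mouse and 5 fell without the second cachectic mouse. Over all genes, 828 of 16502 tested were called without the third control mouse and 2026 of 16574 without the second cachectic mouse.

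**Figure D1:**
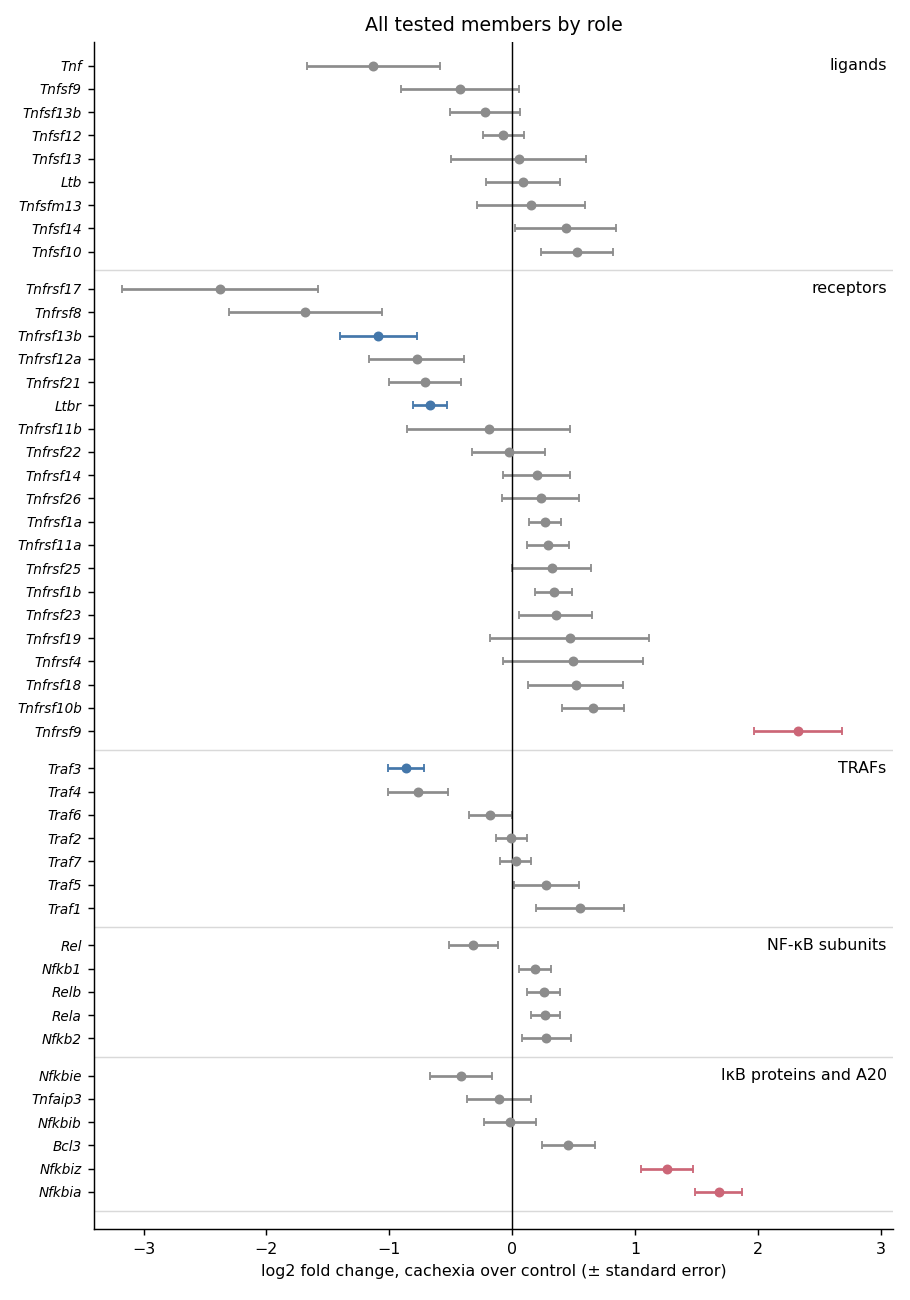
Log2 fold change (cachexia over control) with its standard error for each of the 47 tested members, grouped by role; red points are members called higher, blue points called lower and grey points not called at an adjusted p-value of 0.05 in edgeR's quasi-likelihood test. The red points are *Tnfrsf9*, *Nfkbiz* and *Nfkbia*, the blue points *Tnfrsf13b*, *Ltbr* and *Traf3*, and the other 41 are grey.

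The samples carried markers of fat, which do not tell one fat depot from another. Adipocyte markers summed to between 26296 and 33505 CPM, counts scaled to a common library size, in control mice and between 28703 and 43700 CPM in cachectic mice, while the 11 epididymis markers reached at most 4.16 CPM in sum in any mouse. Total counts ran from 14928766 to 18855546, all cachectic samples lying below all control samples. Other cell types differed between the groups, as shown in the plot of summed marker levels. Neutrophil markers rose in 10 of 11 tested genes, against 9.0% of all genes tested. Their median level in control mice was 0.24 FPKM. Genes this low in control mice can pass the count filter through the cachectic mice alone, so the 10 rises are a description. The sum lay between 12.4 and 16.4 CPM in control mice and between 219 and 800 CPM in cachectic mice. *Ly6g*, a defining marker, had 0 counts in every control mouse. Endothelial markers rose in 5 of 10 genes (1816 to 1909 CPM, then 2774 to 3861 CPM), and red cell markers in 6 of 6 (252 to 451 CPM, then 1334 to 2856 CPM). Fibroblast and fat progenitor markers fell in 4 of 10 genes and rose in 1 (5405 to 6197 CPM, then 2501 to 3467 CPM). The B cell list, whose sum is mostly the immunoglobulin gene *Ighm*, lay between 427 and 532 CPM in control mice and between 13.4 and 132 CPM in cachectic mice, with *Ighm* as the single call among 12 genes. T cell markers lay between 14.8 and 23.1 CPM and then between 8.57 and 9.83 CPM, with 2 of 10 genes called lower. The macrophage sum overlapped between the groups (1624 to 2038 CPM and 1480 to 2145 CPM), with 3 of 12 genes called higher and 1 lower. For every member below, a change in the number of cells of a type and a change in RNA per cell cannot be told apart in bulk tissue.

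**Figure D2:**
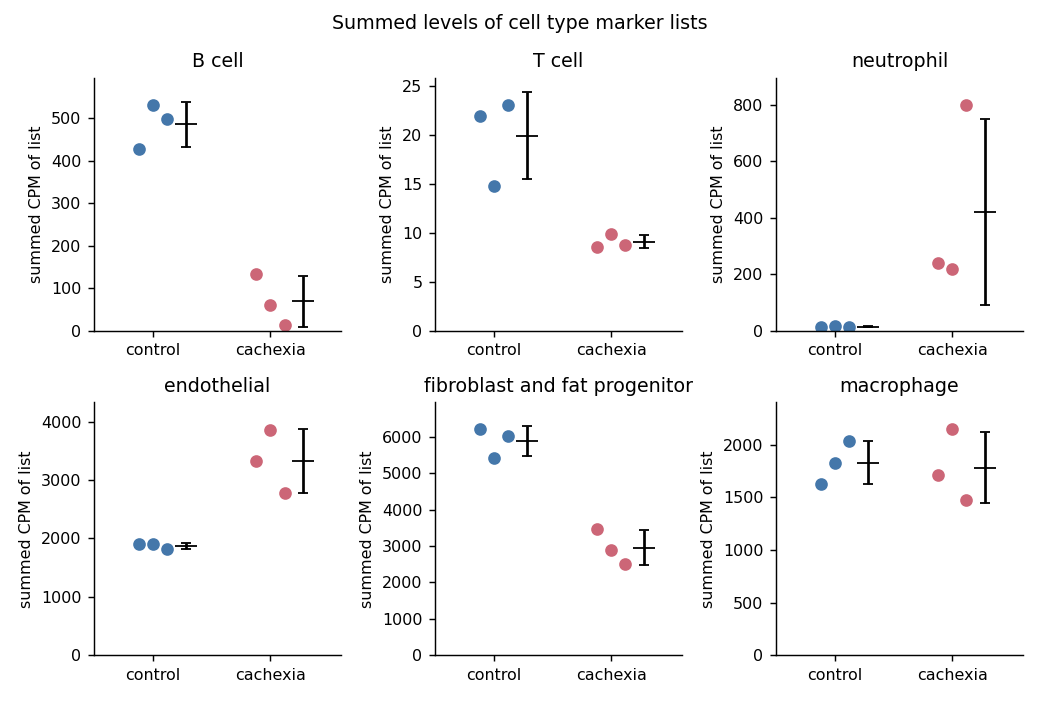
Summed CPM of the listed marker genes of 6 cell types in each mouse (y axis, linear, from 0), with points for single mice and bars for the mean ± SD of 3 mice per group. The neutrophil sums of cachectic mice (219 to 800 CPM) lie above all control values, the B cell sums (13.4 to 132 CPM) below them, and the macrophage sums overlap.

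The 250 bases that precede the transcript start are shown for the member with the smallest p-value that rose (*Nfkbia*), for the receptor that rose (*Tnfrsf9*) and for the TRAF that fell (*Traf3*). They are reference sequence from RefSeq on build GRCm38.p6, written 5′ to 3′ along the strand of the gene, and end at the base before the start. Capitals mark matches to the NF-κB (κB) consensus, a motif of 10 letters searched on both strands. *Nfkbia* lies on the minus strand with its window at chr12:55492648-55492897, *Traf3* on the plus strand at chr12:111166120-111166369, and the second of the 2 starts listed for *Tnfrsf9* on the plus strand at chr4:150927749-150927998.
Nfkbia: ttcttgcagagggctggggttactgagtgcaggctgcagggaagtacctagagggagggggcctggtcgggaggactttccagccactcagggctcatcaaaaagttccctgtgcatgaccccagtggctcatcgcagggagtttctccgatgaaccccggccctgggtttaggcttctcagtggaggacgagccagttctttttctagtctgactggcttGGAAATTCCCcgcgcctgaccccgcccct
Tnfrsf9: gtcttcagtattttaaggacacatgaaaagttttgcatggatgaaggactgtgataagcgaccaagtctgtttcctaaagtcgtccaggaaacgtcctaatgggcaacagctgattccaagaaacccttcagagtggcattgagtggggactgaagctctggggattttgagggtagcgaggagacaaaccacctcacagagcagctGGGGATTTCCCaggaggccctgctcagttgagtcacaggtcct
Traf3: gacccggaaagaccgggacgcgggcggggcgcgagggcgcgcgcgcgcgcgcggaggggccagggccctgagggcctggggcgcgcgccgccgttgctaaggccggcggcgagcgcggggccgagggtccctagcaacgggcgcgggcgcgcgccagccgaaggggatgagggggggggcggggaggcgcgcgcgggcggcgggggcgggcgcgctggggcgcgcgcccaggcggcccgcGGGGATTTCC
The match of *Nfkbia* begins 29 bases before the start. In *Tnfrsf9*, 2 overlapping matches begin 43 and 42 bases before it and form the single run in capitals. *Traf3* has its match in the last 10 bases. One gene of each direction thus carried the same 10 letters, GGGGATTTCC, in *Tnfrsf9* and in *Traf3*. The window of the first start listed for *Tnfrsf9*, at chr4:150919905-150920154, held no match, nor did the upstream windows of *Ltbr* and *Tnfrsf13b*, which fell.

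Across the members, promoters from 250 bases before to 50 bases after the start were found for 44 of 54 genes, which did not include the called gene *Nfkbiz*. A κB match was present in 11 of the 44 (25%), against 9.55% of the 27025 genes with such a window, and by window in 8.46% of 32851. By role, the match was seen in 4 of 5 inhibitors, 2 of 3 NF-κB subunits, 3 of 17 receptors, 1 of 7 TRAFs and 1 of 12 ligands. Those with a match were *Nfkbia*, *Nfkbie*, *Bcl3*, *Tnfaip3*, *Nfkb2*, *Rel*, *Tnfrsf8*, *Tnfrsf9*, *Tnfrsf25*, *Traf3* and *Ltb*. Of these 11, only *Nfkbia*, *Tnfrsf9* and *Traf3* were called, and 2 of these rose and 1 fell. A match is a description of letters in the window and was not tied to binding here.

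The inhibitors had the highest rise in summed level of any role, from 162 ± 5.89 CPM in control mice to 347 ± 68.2 CPM in cachectic mice (mean ± SD, n = 3 each), most of which came from *Nfkbia*. *Nfkbia* encodes IκBα, which binds NF-κB dimers and holds them in the cytoplasm, and lies at chr12:55489410-55492647 on the minus strand. Its levels were 63.9, 69.8 and 66.9 CPM in the control mice and 158, 252 and 234 CPM in the cachectic mice. All cachectic mice lay above all control mice, and the first of them was the lowest of its group. The mean went from 66.9 ± 2.94 to 215 ± 49.9 CPM, a 3.21-fold rise (log2 fold change 1.68, SE 0.19, 95% interval 1.24 to 2.13, edgeR adjusted p = 0.00265). Per length, *Nfkbia* stood at 41.0 FPKM in control mice, second among the members, and at 130.3 FPKM in cachectic mice.

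*Nfkbiz* encodes IκBζ, a nuclear IκB protein that works as a co-regulator of a subset of NF-κB targets (chr16:55811375-55838899, minus strand). Control mice had 22.5, 35.6 and 20.8 CPM and cachectic mice 59.1, 67.7 and 62.4 CPM. The groups were separate, although the second control mouse stood above the other two. The rise was 2.40-fold (log2 fold change 1.26, SE 0.21, edgeR adjusted p = 0.00872). The sums of neutrophil and endothelial markers were higher in the same mice in which *Nfkbia* and *Nfkbiz* were higher, and their part in these rises was not tested.

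The other 4 inhibitors were not called. *Tnfaip3*, which encodes A20, an enzyme that edits ubiquitin chains to end TNF receptor signaling, had 27.7, 20.8 and 24.4 CPM in control mice and 14.2, 24.3 and 29.2 CPM in cachectic mice. The cachectic mice lay below, within and above the control range, with a log2 fold change of −0.11 (SE 0.26, 95% interval −0.71 to 0.49, edgeR adjusted p = 0.805). *Bcl3*, a nuclear IκB protein that pairs with p50 and p52 dimers, had 13.3, 15.5 and 11.6 CPM and then 14.7, 17.3 and 23.7 CPM. Its groups overlapped and its log2 fold change of 0.46 (SE 0.22) did not pass (edgeR adjusted p = 0.178). For *Nfkbie*, which encodes IκBε, the control values of 9.43, 9.80 and 8.44 CPM lay just above the cachectic values of 4.84, 7.62 and 8.26 CPM, without a call (log2 fold change −0.42, SE 0.25, edgeR adjusted p = 0.280). *Nfkbib* encodes IκBβ and had a log2 fold change of −0.02 (SE 0.21). The 2 rises therefore belonged to single IκB genes and not to the inhibitors as a group.

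**Figure D3:**
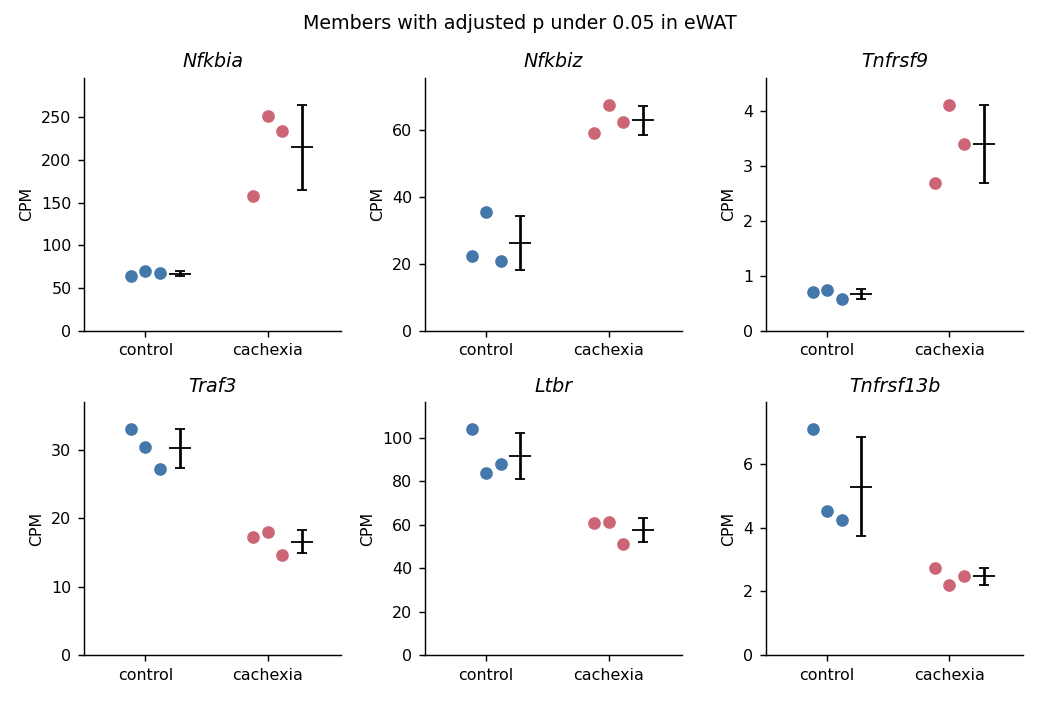
CPM of the 6 members called in either direction, 1 panel per gene with its own linear y axis from 0; points are single mice and bars the mean ± SD of 3 mice per group. In every panel the 3 cachectic mice lie apart from the 3 control mice, above for *Nfkbia*, *Nfkbiz* and *Tnfrsf9* and below for *Traf3*, *Ltbr* and *Tnfrsf13b*.

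The 5 NF-κB subunits summed to 232 ± 4.08 CPM in control and 268 ± 17.0 CPM in cachectic mice (n = 3 each). Of the 5, 0 were called, against 17.6% of all genes tested. None of the 5 had an unadjusted p-value under 0.05 in edgeR's test, and none was called under any of the 16 other settings, DESeq2 and limma included. *Rela* encodes p65, the subunit that activates transcription in the canonical branch. It was measured at 82.9, 74.8 and 73.0 CPM in control mice and at 88.2, 92.9 and 97.1 CPM in cachectic mice. The groups did not overlap, but the log2 fold change of 0.27 (SE 0.12) was not called (edgeR adjusted p = 0.147). *Nfkb1*, the gene of p105 and p50, had 84.9, 87.4 and 90.4 CPM and then 102, 110.3 and 87.4 CPM, the third cachectic mouse lying within the control range (log2 fold change 0.19, SE 0.13, 95% interval −0.11 to 0.49, edgeR adjusted p = 0.341).

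The partners of the noncanonical branch were likewise uncalled. *Nfkb2*, the gene of p100 and p52, was at 35.1, 31.1 and 33.0 CPM in control mice and at 28.2, 45.4 and 46.6 CPM in cachectic mice, of which the first lay below all control mice and the other two above them. The log2 fold change was 0.28 (SE 0.20, 95% interval −0.18 to 0.74, edgeR adjusted p = 0.363). *Relb*, which pairs with p52, had 20.97, 18.91 and 18.98 CPM and then 22.80, 22.54 and 24.98 CPM, so that its groups were separate by a narrow margin (log2 fold change 0.26, SE 0.13, edgeR adjusted p = 0.210). *Rel*, the c-Rel subunit known for its role in lymphocytes, had 12.6, 16.9 and 14.6 CPM and then 9.39, 13.1 and 12.9 CPM. It was the single subunit with a negative log2 fold change, −0.32 (SE 0.20, edgeR adjusted p = 0.306).

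Of the 7 TRAFs, 1 fell and none rose (14.3% called, against 17.6% of all genes tested). Their summed level was 201 ± 10.2 CPM in control and 179 ± 16.0 CPM in cachectic mice. *Traf3*, an adaptor that restrains the noncanonical branch by keeping the kinase NIK low, lies at chr12:111166370-111267153 on the plus strand. Control mice had 33.0, 30.4 and 27.2 CPM, and cachectic mice 17.2, 17.9 and 14.7 CPM. Every cachectic mouse lay below every control mouse, with the control mean 1.82-fold that of cachectic mice (log2 fold change −0.86, SE 0.15, 95% interval −1.20 to −0.52, edgeR adjusted p = 0.00916). An antisense gene, 4930595D18Rik, overlaps *Traf3*, and whether the counting used strand is not given in the sources used here. Transcripts of *Map3k14*, the gene of NIK, belong to the kinase list described further on and were not called.

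*Traf4*, an adaptor with known roles in epithelia and development, was at 25.6, 24.9 and 19.4 CPM in control mice and at 12.1, 18.7 and 10.3 CPM in cachectic mice. Its groups did not overlap, but the difference was not called (log2 fold change −0.77, SE 0.24, edgeR adjusted p = 0.0650). *Traf2*, the main adaptor of both TNF receptors, was nearly level at 22.0, 20.9 and 20.5 CPM against 21.2, 20.3 and 21.5 CPM. Its log2 fold change of −0.01 had a 95% interval from −0.30 to 0.28, so a change beyond that range in either direction was not seen. *Traf6*, which serves interleukin-1 and Toll-like receptors, and *Traf7* had log2 fold changes of −0.18 (SE 0.18) and 0.03 (SE 0.13). *Traf1*, itself a known NF-κB target, ranged from 5.79 to 8.28 CPM in control and from 5.42 to 14.3 CPM in cachectic mice, a log2 fold change of 0.55 that did not pass (SE 0.36, edgeR adjusted p = 0.319).

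Among the 20 tested receptors, 1 rose and 2 fell (15% called, against 17.6% of all genes tested). Their sum was 485 ± 5.57 CPM in control and 503 ± 25.3 CPM in cachectic mice. *Tnfrsf9* encodes CD137, a costimulatory receptor best known on activated T cells (chr4:150914562-150946102, plus strand). It was measured at 0.702, 0.745 and 0.567 CPM in control mice and at 2.68, 4.11 and 3.41 CPM in cachectic mice. The groups were far apart relative to their spread, at means of 0.671 ± 0.0932 and 3.40 ± 0.716 CPM, a 5.02-fold rise (log2 fold change 2.33, SE 0.36, edgeR adjusted p = 0.00644). The gene remained low per length, at 0.244 FPKM in control and 1.22 FPKM in cachectic mice. The T cell marker sum was 14.8 to 23.1 CPM in control and 8.57 to 9.83 CPM in cachectic mice. The sum of natural killer and innate lymphoid markers was 65.4 to 87.3 CPM and then 70.1 to 106 CPM, with 1 of 10 genes called lower. Dendritic cell markers summed to 151 to 156 CPM and then 158 to 198 CPM, with 2 of 9 genes called lower. Neutrophil and endothelial sums were higher in cachectic mice. The part of any of these cell types in the change of *Tnfrsf9* was not tested. *Camta1* overlaps *Tnfrsf9* on the other strand.

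*Ltbr*, the lymphotoxin beta receptor, known on stromal and myeloid cells, was the third most abundant member in control eWAT at 38.5 FPKM (chr6:125306571-125313885, minus strand). Control mice had 104, 83.8 and 87.9 CPM and cachectic mice 60.8, 61.1 and 51.3 CPM. The groups did not overlap, and the log2 fold change was −0.67 (SE 0.14, 95% interval −0.99 to −0.35, edgeR adjusted p = 0.0172). Without the third control mouse *Ltbr* was no longer called (edgeR adjusted p = 0.0648), an omission that left 828 calls over all genes, against 2821. The fibroblast and fat progenitor sum was lower in the same mice, and its part in the falls of *Ltbr* and *Traf3* was not tested. On chromosome 6, *Ltbr* lies 35476 bases from *Tnfrsf1a*, whose log2 fold change was positive.

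*Tnfrsf13b* encodes TACI, a receptor of the B cell factors BAFF and APRIL (chr11:61126755-61149372, plus strand). Its levels were 7.07, 4.53 and 4.25 CPM in control mice and 2.74, 2.21 and 2.49 CPM in cachectic mice. The groups did not overlap, with the first control mouse highest, and the log2 fold change of −1.09 (SE 0.31) was just inside the threshold (edgeR adjusted p = 0.0496). Only 5 of 16 other settings called it, with adjusted p-values between 0.0136 and 0.119 over the 16, which include edgeR, DESeq2 and limma. The B cell marker sum was lower in the same mice, with 1 of 12 genes called (8.33%, against 17.6% of all genes tested). Log2 fold changes were negative for 11 of the 12, with a median of −1.13. The part of B cells in the difference of *Tnfrsf13b* was not tested.

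The other receptors of the same ligand pair had values in the same direction without a call. *Tnfrsf17*, the plasma cell receptor BCMA, had 0.903, 1.20 and 1.13 CPM in control mice and 0.467, 0.123 and 0 CPM in cachectic mice, without overlap (log2 fold change −2.38, SE 0.80, edgeR adjusted p = 0.0780). It was called in 4 of the 15 other settings that could test it, 3 of them with limma and 1 without the first cachectic mouse in edgeR. *Tnfrsf13c*, the BAFF receptor, had 12, 5 and 8 raw counts in control mice and 4, 0 and 1 in cachectic mice, too few to be tested. At this depth a difference in these genes rests on a handful of reads. Of 8 tested plasma cell markers, 0 were called in edgeR's test, with 2 at an unadjusted p-value under 0.05, and 5 had negative log2 fold changes, with a median of −0.83. Their sum, led by *Xbp1*, which other cells also express, was between 371 and 438 CPM in control and between 353 and 642 CPM in cachectic mice. The part of plasma cells in the values of *Tnfrsf17* was not tested.

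*Tnfrsf8*, which encodes CD30 of activated lymphocytes, was the other uncalled receptor whose log2 fold change reached 1 in size. It was at 1.25, 1.26 and 1.30 CPM in control mice and at 0.117, 0.798 and 0.262 CPM in cachectic mice. The control mice were nearly equal and all cachectic mice lay below them, with a log2 fold change of −1.68 (SE 0.62, edgeR adjusted p = 0.1005). *Tnfrsf8* lies 20266 bases from *Tnfrsf1b* on chromosome 4, whose log2 fold change was positive, and neither gene was called.

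The receptors of TNF itself were among the more abundant members. *Tnfrsf1a*, the receptor TNFR1, present on most cell types, had the highest level of all members per length in control eWAT, at 85.2 FPKM. Its values were 218, 229 and 224 CPM in control mice and 257, 280.4 and 269.7 CPM in cachectic mice. All cachectic mice lay above all control mice, yet the log2 fold change of 0.27 (SE 0.13, 95% interval −0.03 to 0.56) was not called (edgeR adjusted p = 0.183). *Tnfrsf1b*, the receptor TNFR2, had 48.2, 48.4 and 55.3 CPM and then 60.9, 76.3 and 54.9 CPM. These groups overlapped by the third cachectic mouse (log2 fold change 0.34, SE 0.15, edgeR adjusted p = 0.160), and its level was 13.1 FPKM in control mice.

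The remaining receptors gave log2 fold changes between −0.78 and 0.66 with no call. The lowest was *Tnfrsf12a*, which encodes Fn14, the receptor of TWEAK, at −0.78 (SE 0.38, edgeR adjusted p = 0.196). *Tnfrsf21*, death receptor 6, had 35.4, 32.6 and 33.4 CPM in control mice and 14.0, 31.8 and 16.1 CPM in cachectic mice, where the second cachectic mouse stood near the control mice (log2 fold change −0.71, SE 0.29, edgeR adjusted p = 0.130). The highest was *Tnfrsf10b*, the receptor of the death ligand TRAIL, at 7.98, 10.7 and 11.4 CPM against 11.1, 17.8 and 18.7 CPM, with overlap by the first cachectic mouse (log2 fold change 0.66, SE 0.25, edgeR adjusted p = 0.107). *Tnfrsf22*, *Tnfrsf23* and *Tnfrsf26* sit together on chromosome 7 and are close relatives that may share reads, so their values of −0.03, 0.36 and 0.23 are uncertain. *Tnfrsf11b*, the decoy receptor osteoprotegerin, was the most scattered, at 2.56 to 13.4 CPM in control and 2.70 to 10.8 CPM in cachectic mice.

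**Figure D4:**
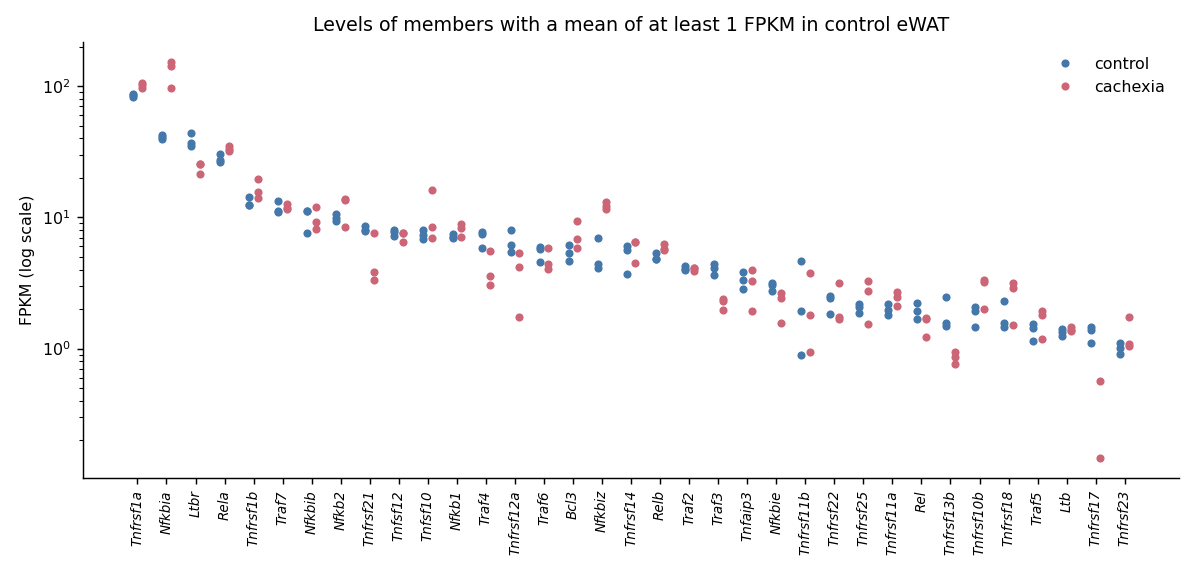
FPKM (log scale) of each member with a control mean of at least 1 FPKM, ordered by that mean, with blue points for the 3 control and red points for the 3 cachectic mice; a value of 0 for *Tnfrsf17* in the third cachectic mouse cannot be drawn on this scale. *Tnfrsf1a*, *Nfkbia*, *Ltbr* and *Rela* lead in control eWAT, and *Nfkbia* exceeds *Tnfrsf1a* in 2 of the 3 cachectic mice.

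The ligands were low per length, with control means of at most 7.64 FPKM. Of the 9 tested, 0 were called, against 17.6% of all genes tested. None had an unadjusted p-value under 0.05 in edgeR's test, and none was called under any of the 16 other settings. *Tnf* had 1.61, 1.32 and 0.793 CPM in control mice and 0.350, 0.368 and 0.983 CPM in cachectic mice. The third cachectic mouse exceeded the third control mouse, so the groups overlapped (log2 fold change −1.13, SE 0.54, 95% interval −2.38 to 0.12, edgeR adjusted p = 0.183). Per length *Tnf* stood at 0.746 FPKM in control and 0.338 FPKM in cachectic mice, whereas its receptor *Tnfrsf1a* stood at 85.2 and 102 FPKM.

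The neighbours of *Tnf* on chromosome 17, *Lta* and *Ltb*, encode lymphotoxin alpha and lymphotoxin beta, which together form a ligand of the receptor of *Ltbr*. *Lta* lies 1157 bases from *Tnf* and had 9, 0 and 4 raw counts in control mice and 0, 3 and 2 in cachectic mice, too few for a test. *Ltb* lies 3060 bases from *Tnf* and had 1.91, 2.18 and 2.04 CPM in control mice and 2.27, 2.15 and 2.10 CPM in cachectic mice. Its groups overlapped, and the log2 fold change was 0.09 (SE 0.30, 95% interval −0.60 to 0.79, edgeR adjusted p = 0.861). Hence the receptor *Ltbr* was lower while *Ltb* was not called and *Lta* was hardly detected.

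*Tnfsf10*, which encodes TRAIL, was at 36.4, 42.6 and 39.2 CPM in control mice and 45.5, 87.6 and 37.5 CPM in cachectic mice. Its higher cachectic mean came mostly from the second mouse, and it was not called (log2 fold change 0.53, SE 0.29, edgeR adjusted p = 0.244). *Tnfsf12*, which encodes TWEAK, was at 12.29, 11.81 and 11.05 CPM and then 11.66, 11.73 and 10.03 CPM (log2 fold change −0.07, SE 0.17, edgeR adjusted p = 0.798). The B cell factors had log2 fold changes of −0.22 for *Tnfsf13b*, which encodes BAFF, and 0.05 for *Tnfsf13*, which encodes APRIL. *Tnfsfm13* overlaps *Tnfsf12* and *Tnfsf13*, so reads of these 3 genes may not be separable. *Tnfsf14*, which encodes LIGHT, and *Tnfsf9*, the ligand of the receptor of *Tnfrsf9*, were at 0.44 and −0.42. The 6 ligands that could not be tested were *Lta*, *Tnfsf4*, *Tnfsf8*, *Tnfsf11*, *Tnfsf15* and *Tnfsf18*. The highest raw count among them was 16, in a control mouse for *Tnfsf11*, the gene of RANKL.

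Other genes of the pathway, 110 on lists written for this tissue, included 100 that could be tested. Of these, 16 rose and 10 fell (26.0%, against 17.6% of all genes tested), with a median log2 fold change of 0.16. The lists were written with earlier results of these data known, so this share is a description and not a test. The count of rises was 5 without the third control mouse, and that of falls was 3 without the second control mouse, 4 without the third control mouse and 6 without the second cachectic mouse. Among relatives under other symbols, 2 of 7 tested fell and none rose (28.6% called). *Cd40*, a costimulatory receptor of B cells and other antigen-presenting cells, fell from 4.36, 4.81 and 3.85 CPM to 1.92, 1.47 and 1.18 CPM (log2 fold change −1.50, SE 0.32, edgeR adjusted p = 0.0199). *Eda*, the ligand ectodysplasin, fell by 0.73 on the log2 scale (SE 0.20, edgeR adjusted p = 0.0444). The B cell sum was lower in the same mice. Of 9 dendritic cell markers, 2 were called lower and 0 higher. Their sum was 151 to 156 CPM in control and 158 to 198 CPM in cachectic mice. The part of either cell type in the fall of *Cd40* was not tested.

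The signaling steps between receptor and NF-κB showed calls in both directions. On a list of 11 genes of receptor adaptors and their partners, *Trafd1* rose (log2 fold change 0.84, SE 0.14, edgeR adjusted p = 0.00936). It encodes a TRAF-related negative regulator of innate signaling. *Tank*, a TRAF-binding scaffold, fell (−0.96, SE 0.23, edgeR adjusted p = 0.0266). Of 14 genes of the IKK complex, its upstream kinases and their partners, *Tab3*, a partner of TAK1, rose (1.15, SE 0.27, edgeR adjusted p = 0.0266). In the same list *Map3k1* fell (−0.45, SE 0.12, edgeR adjusted p = 0.0443). Of 16 ubiquitin editors and A20 partners, 3 were called. *Tnip1* and *Tnip2*, both partners of A20, rose by 0.56 (SE 0.13, edgeR adjusted p = 0.0231) and 0.95 (SE 0.19, edgeR adjusted p = 0.0161) on the log2 scale, whereas *Rnf11*, another A20 partner, fell by 1.13 on the same scale (SE 0.16, edgeR adjusted p = 0.00463). *Nfkbil1* was the single call among 8 tested genes on a list of IκB-like and other NF-κB-related genes (1.01, SE 0.17, edgeR adjusted p = 0.00890). In these 4 lists the called shares were 18.2%, 14.3%, 18.8% and 12.5%, against 17.6% of all genes tested.

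Of the listed NF-κB target genes, 17 of 48 tested were called (35.4%, against 17.6% of all genes tested), 12 higher and 5 lower. The median log2 fold change of the 48 was 0.36. This list too was chosen with earlier results of these data known, so its share is a description and not a test. The vascular adhesion genes *Sele* and *Selp*, which encode E-selectin and P-selectin, led the rises. *Sele* went from 0.652, 0.688 and 0.453 CPM to 7.99, 3.81 and 4.79 CPM (log2 fold change 3.19, SE 0.42, edgeR adjusted p = 0.00388). *Selp* went from 10.2, 10.9 and 7.37 CPM to 53.3, 64.1 and 106 CPM (2.97, SE 0.29, edgeR adjusted p = 0.00162). No mouse of one group reached the values of the other in either gene. *Cebpd*, a transcription factor of early adipogenesis and inflammation, rose by 2.13 (SE 0.35, edgeR adjusted p = 0.00807), *Gadd45b*, a stress gene, by 1.84 (SE 0.20, edgeR adjusted p = 0.00220) and *Icam1*, an adhesion gene, by 1.35 (SE 0.24, edgeR adjusted p = 0.00999), each on the log2 scale. Endothelial marker sums were higher in the same mice, and their part in the rises of *Sele*, *Selp* and *Icam1* was not tested.

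The 3 called genes of this list with the lowest log2 fold changes encode chemokines. *Ccl2*, which attracts monocytes, fell from 17.1, 29.8 and 14.8 CPM to 6.47, 6.63 and 4.72 CPM (log2 fold change −1.79, SE 0.30, edgeR adjusted p = 0.00872). *Ccl7*, a close relative, fell by 2.11 (SE 0.46, edgeR adjusted p = 0.0209) and *Cxcl9*, an attractant of T cells, by 1.84 (SE 0.20, edgeR adjusted p = 0.00250) on the log2 scale. Another chemokine gene, *Cxcl2*, whose product attracts neutrophils, rose (0.92, SE 0.25, edgeR adjusted p = 0.0415). The other genes called lower were *Csf1* (−0.97, SE 0.25, edgeR adjusted p = 0.0354), a growth factor of macrophages, and *Ifngr2* (−0.57, SE 0.13, edgeR adjusted p = 0.0235), a chain of the interferon gamma receptor.

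**Figure D5:**
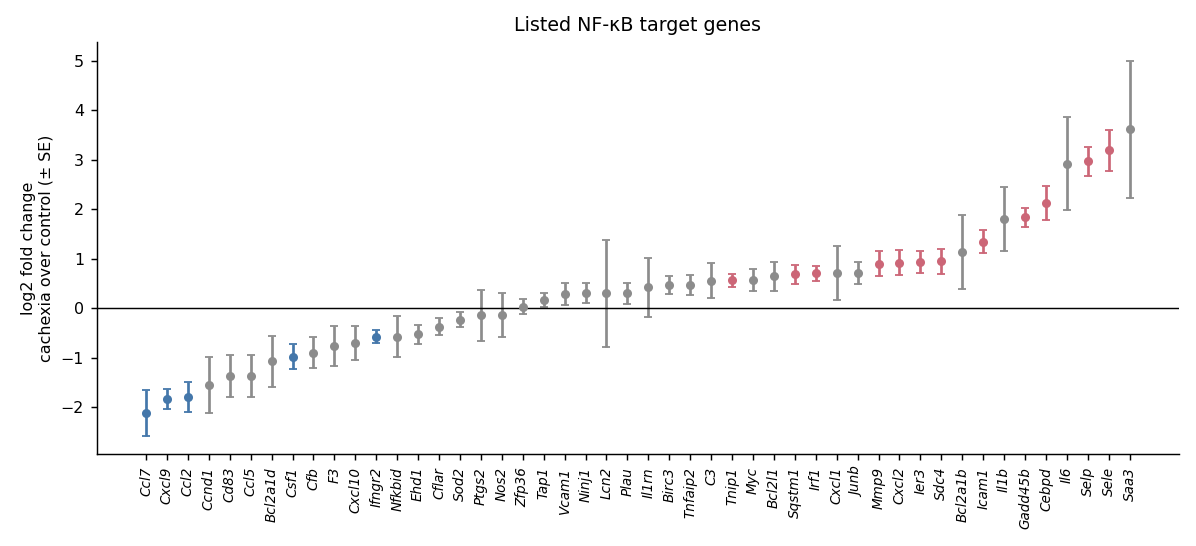
Log2 fold change (cachexia over control, y axis) with its standard error for the 48 tested NF-κB target genes, ordered by value; red points are called higher, blue points lower and grey points not called at an adjusted p-value of 0.05 in edgeR's quasi-likelihood test. *Ccl7*, *Cxcl9* and *Ccl2* lie at the low end, *Selp* and *Sele* near the high end, and the points with the widest bars, such as *Saa3*, are grey.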

How the data were processed

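RNA-seq of eWAT was analyzed in 6 samples grouped by their labels. The authors removed adapter and low-quality reads, aligned with Hisat2 (version not given in the sources used here) and counted with featureCounts 1.5.0-p3, and deposited raw counts per gene. The authors also deposited FPKM values, scaled by gene length and sequencing depth. The submitters' processing notes name build mm9, but 53 of 54 members had the coordinates of GENCODE M21, which is on GRCm38, and coordinates are given as deposited. The deposited table of DESeq2 1.16.1 fold changes and p-values was not used.

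Counts of all genes were fitted with edgeR 4.0.16 in R 4.3.3 (TMM after filterByExpr, quasi-likelihood test, no covariates), with Benjamini-Hochberg adjustment over 16003 genes at 0.05. The biological coefficient of variation was 0.264. CPM use TMM library sizes. The script was tested on simulated data. Alternatives were RLE factors, plain library totals, no filter, at least 10 counts in every sample, protein-coding genes alone, a replicate block, DESeq2 1.42.0, limma 3.58.1 with voom or on log2 of FPKM plus 1 or 0.1, and each mouse left out. No 2 samples held near-identical counts.

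Members and lists were chosen with earlier results of these data known. Values in every mouse are given for called members, for 14 members set by name and for tested members whose log2 fold change reached 1 in size, and for a few others chosen after their values were seen. From each list of other pathway genes, those called were named, at most 5 in each direction by size, and *Cxcl2* was named after its value was seen.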

Additional observations from a re-analysis of the deposited data

How the results depend on the processing

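*Nfkbia*, *Nfkbiz*, *Tnfrsf9* and *Traf3* kept their direction and call in all 16 other settings. Over the 6 called members, 84 of 96 values kept both, and the other 12, all of *Tnfrsf13b* or *Ltbr*, kept the direction without the call. With a replicate left out, the members called lower ranged from 1 (without control replicate 3) to 5 (without cachexia replicate 2), the other pathway genes called higher from 5 (without control replicate 3) to 16 and those called lower from 3 (without control replicate 2) to 11. DESeq2 called 16 other pathway genes lower. Over all genes the calls ran from 828 without control replicate 3 to 3884 with DESeq2, against 2821. Control replicate 1 differed more from replicates 2 and 3 (chi-square per degree of freedom 59.7 and 46.6) than these did from each other (13.1). The pairs of cachectic mice differed more than any control pair, at 65.9, 65.5 and 85.2. Same-numbered mice did not deviate together (correlations −0.00314, −0.0113 and 0.00849), and a replicate block called 1881 genes and again 3 members higher and 3 lower, with *Traf4* in place of *Tnfrsf13b*. Uncalled members gained 10 calls in all: 4 for *Tnfrsf17*, 3 for *Traf4* and 1 each for *Tnfrsf10b*, *Tnfrsf21* and *Tnfrsf8*. Among all uncalled members, 11 changed sign in some setting. With library totals, *Nfkbib*, *Tnfrsf22* and *Traf2* had log2 fold changes of 0.030, 0.036 and 0.040, and with protein-coding genes alone 0.011, 0.00037 and 0.017. With a replicate left out the log2 fold changes ran from −0.18 to 0.10 for *Nfkbib*, −0.34 to 0.14 for *Tnfaip3*, −0.86 to 0.62 for *Tnfrsf11b*, −0.11 to 0.94 for *Tnfrsf19*, −0.39 to 0.14 for *Tnfrsf22*, −0.28 to 0.90 for *Tnfrsf4*, −0.12 to 0.0017 for *Tnfsf12*, −0.27 to 0.55 for *Tnfsf13*, −0.25 to 0.35 for *Tnfsfm13*, −0.032 to 0.022 for *Traf2* and −0.025 to 0.13 for *Traf7*. The causes were not tested. Depth limits the 7 members that could not be tested and those near 1 CPM.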

Other observations

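Some listed NF-κB targets varied widely within a group, and were chosen here after their values were seen. *Lcn2*, which encodes the iron-binding protein lipocalin 2, had 148, 8.20 and 9.80 CPM in control mice and 18.3, 81.6 and 105 CPM in cachectic mice, the first control mouse being the highest of all 6 (log2 fold change 0.30, SE 1.08, edgeR adjusted p = 0.871). *Saa3*, an acute-phase gene, had 1.61, 5.33 and 6.18 CPM in control mice and 2.16, 149 and 8.72 CPM in cachectic mice, so that its mean rested on the second cachectic mouse (edgeR adjusted p = 0.109). *Il6* had 0.151, 1.09 and 0.0567 CPM in control mice and 1.17, 3.56 and 5.11 CPM in cachectic mice without overlap, and was not called (log2 fold change 2.92, SE 0.94, edgeR adjusted p = 0.0692).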
